A study of Mus musculus with 18 samples.

Results

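Glycolysis and hypoxia response genes were described in B16F10 and E0771 cells that carried an MRTFA, MRTFB or control vector. The set held 36 genes of the 18909 in the expression table, taken by gene symbol: 16 glycolytic enzymes, 2 transporters of glucose and lactate, 3 regulators of glycolysis, 3 genes of the hypoxia-inducible factor (HIF) sensor, and 12 HIF targets outside glycolysis. All 36 were in the table.

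Glycolysis splits glucose into pyruvate in the cytoplasm, and lactate dehydrogenase turns pyruvate into lactate, which regenerates NAD+ and lets the pathway run without oxygen. When oxygen is low, the HIF prolyl hydroxylases lose activity, the HIF alpha subunit escapes breakdown, and the HIF dimer binds a short core sequence near its target genes. Those targets include most glycolytic enzymes, the glucose transporter Slc2a1, the angiogenic factor Vegfa and the vasoactive peptide Adm, and many tumour lines keep part of the programme on in culture.

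The study compared 18 RNA-seq libraries from C57BL6 mouse tumour lines in 6 groups of 3. B16F10 is a melanoma line and E0771 a mammary tumour line, each carrying a pRetrox vector labelled control, MRTFA or MRTFB (the last 2 are myocardin-related coactivators of serum response factor). All 18 libraries, controls included, came from cells given 500 ng/mL doxycycline for 48 h to switch on the transgene, in RPMI medium. The labels name 1 line of each tumour type and do not say whether replicates were separate cultures, so p-values measure the spread between these libraries, which may be technical.

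Between 27607055 and 37116655 reads were counted per library, and the values below are reads scaled to a common depth ("scaled reads"). A count of 3 reads, the limit that a count of 0 allows, corresponds to 2.787 to 3.376 scaled reads, for counting error only. Mkl1, which encodes MRTFA, had 12159.7 to 16556 scaled reads in E0771 with MRTFA beside 1124 to 1514 in its controls, but in B16F10 its 1398, 902 and 1314 with MRTFA overlapped the 949.7 to 1109 of the controls, and the library labelled MRTFA 2 lay below all 3. Mkl2, which encodes MRTFB, had 2056 to 2211 beside 1235 to 1446 in E0771, and in B16F10 1738 to 1964 beside 1290.0 to 1881. Acta2, a known MRTF target, was at 37313 to 72885 in B16F10 with MRTFA beside 176 to 798 in controls, and at 675541 to 813607 in E0771 with MRTFA beside 16568 to 23963. Melanocyte markers summed to 561637 to 757748 scaled reads in B16F10 and 369 to 636 in E0771. Mammary epithelial markers, of which 5 of 7 were in the table, summed to 18.1 to 156 in B16F10, to 5819.9 to 9283 in E0771 controls and MRTFB libraries, and to 14987 to 17027 in E0771 with MRTFA. In B16F10 the third control and the third MRTFB library stood apart from the other 2 of their group: the chi-square per degree of freedom was 11.7 between controls 1 and 2 and 40.1 and 43.0 with control 3, and 15.7 between MRTFB 1 and 2 and 43.9 and 45.5 with MRTFB 3. Among the MRTFA libraries it was 28.7 between 1 and 3 and 34.4 and 44.9 with 2. No source used here gives the strand use in the counting, so Hk1, Gpi1, Pfkp, Pfkm, Aldoa, Tpi1, Gapdh, Hif1a, Car9, Ndrg1 and Ankrd37, whose exons overlap other genes of the table, are uncertain to that extent. Gapdh, Eno1, Pgk1, Ldha, Pgam1, Pkm, Tpi1 and Aldoa also have processed copies in the genome that can share reads.

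These promoters are printed because their genes changed in opposite directions with MRTFA in E0771 and each has a window with the HIF core: Adm, Hif1a and Egln3, which rose, and Pdk1, P4ha1 and Mxi1, which fell. Each is the 250 bases before a RefSeq start on GRCm38.p6 (mm10), 5′ to 3′ on the gene's strand, with no annotated exon base in it. They were chosen with their core counts known: another Mxi1 window and another Pdk1 window held no core, and the remaining Mxi1 window, which overlaps an exon, held 1. Capitals mark ACGTG or GCGTG on either strand, the core that HIF dimers bind, and a CACGTG E-box counts on both strands.

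Adm (chr7:110627407-110627656, plus strand): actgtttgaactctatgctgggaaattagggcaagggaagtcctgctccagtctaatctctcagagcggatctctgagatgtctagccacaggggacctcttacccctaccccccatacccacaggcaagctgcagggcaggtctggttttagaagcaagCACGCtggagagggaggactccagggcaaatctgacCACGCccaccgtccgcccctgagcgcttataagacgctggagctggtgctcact
Hif1a (chr12:73907617-73907866, plus strand): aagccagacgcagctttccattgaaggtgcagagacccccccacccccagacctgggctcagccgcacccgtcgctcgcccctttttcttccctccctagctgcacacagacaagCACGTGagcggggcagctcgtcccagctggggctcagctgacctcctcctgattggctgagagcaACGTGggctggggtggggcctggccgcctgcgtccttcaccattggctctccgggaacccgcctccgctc
Egln3 (chr12:54203875-54204124, minus strand): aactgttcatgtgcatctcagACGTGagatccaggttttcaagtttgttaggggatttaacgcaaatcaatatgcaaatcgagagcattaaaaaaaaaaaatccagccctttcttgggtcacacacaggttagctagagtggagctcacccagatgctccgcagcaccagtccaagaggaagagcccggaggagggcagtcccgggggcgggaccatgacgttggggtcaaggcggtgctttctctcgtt
Pdk1 (chr2:71872974-71873223, plus strand): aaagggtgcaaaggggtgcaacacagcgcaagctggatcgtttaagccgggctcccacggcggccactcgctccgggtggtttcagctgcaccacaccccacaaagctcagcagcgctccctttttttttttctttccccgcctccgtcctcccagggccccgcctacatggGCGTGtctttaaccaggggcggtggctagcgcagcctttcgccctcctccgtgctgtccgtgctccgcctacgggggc
P4ha1 (chr10:59323046-59323295, plus strand): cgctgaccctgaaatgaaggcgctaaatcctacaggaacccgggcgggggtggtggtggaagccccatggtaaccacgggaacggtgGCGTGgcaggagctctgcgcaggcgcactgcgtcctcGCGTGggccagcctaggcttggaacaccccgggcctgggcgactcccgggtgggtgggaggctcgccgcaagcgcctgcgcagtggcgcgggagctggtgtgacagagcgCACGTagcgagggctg
Mxi1 (chr19:53329163-53329412, plus strand): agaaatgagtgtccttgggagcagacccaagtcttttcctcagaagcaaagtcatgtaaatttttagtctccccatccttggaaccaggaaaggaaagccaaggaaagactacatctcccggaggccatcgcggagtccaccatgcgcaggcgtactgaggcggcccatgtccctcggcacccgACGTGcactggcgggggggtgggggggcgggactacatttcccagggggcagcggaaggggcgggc

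The Adm window held 2 cores, Hif1a 3, P4ha1 3, and Egln3, Pdk1 and Mxi1 1 each, with the Hif1a count including an E-box. RefSeq promoters were matched for 35 of the 36 genes (Ndrg1 was not), and 41 of their 53 windows held the core, or 77.4%, beside 38.6% of all 32851 RefSeq windows of that length. Member windows were also richer in G and C, with a median of 60.4% beside 52.4%, and no adjustment was made for that. The core was found in 20 of 27 windows of glycolytic enzymes and in 12 of 16 of HIF targets outside glycolysis. No member window held a CArG box, the serum response factor site, searched on both strands, beside 1.47% of all windows. A match of letters is a description and not a binding site, and no match says only that these letters were absent from these 250 bases.

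In the controls the most abundant members per length were largely the same glycolytic enzymes in both lines. Levels between genes were compared as RPKM (reads per kilobase of exon and library depth, from the recovered reads). Gapdh, glyceraldehyde 3-phosphate dehydrogenase, was at 852 ± 67.3 RPKM (SD, n = 3) in B16F10 and 748 ± 128 in E0771. Ldha, lactate dehydrogenase A, ranked 4th in B16F10 at 595 ± 95.9 and 1st in E0771 at 1034 ± 89.5. Aldoa and Tpi1, the aldolase and the triose phosphate isomerase, were at 653 ± 67.1 and 624 ± 59.9 in B16F10 and at 423 ± 65.2 and 674 ± 92.5 in E0771. The SD ranges of Aldoa and Tpi1 overlapped in B16F10 but not in E0771, where those of Gapdh and Tpi1 did. Hif1a was the most abundant of the hypoxia genes in both controls, at 42.8 ± 1.34 in B16F10 and 73.5 ± 5.46 in E0771. At the other end, Adm was the lowest of all 36 in B16F10, at 0.122 ± 0.111 RPKM from 19 reads over 3 libraries, and 14th in E0771 at 41.9 ± 7.73. The lowest in E0771 were Aldoc, a second aldolase, at 0.0663 ± 0.0024, and Car9, the carbonic anhydrase IX often used as a hypoxia marker, at 0.121 ± 0.0044.

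**Figure D1:**
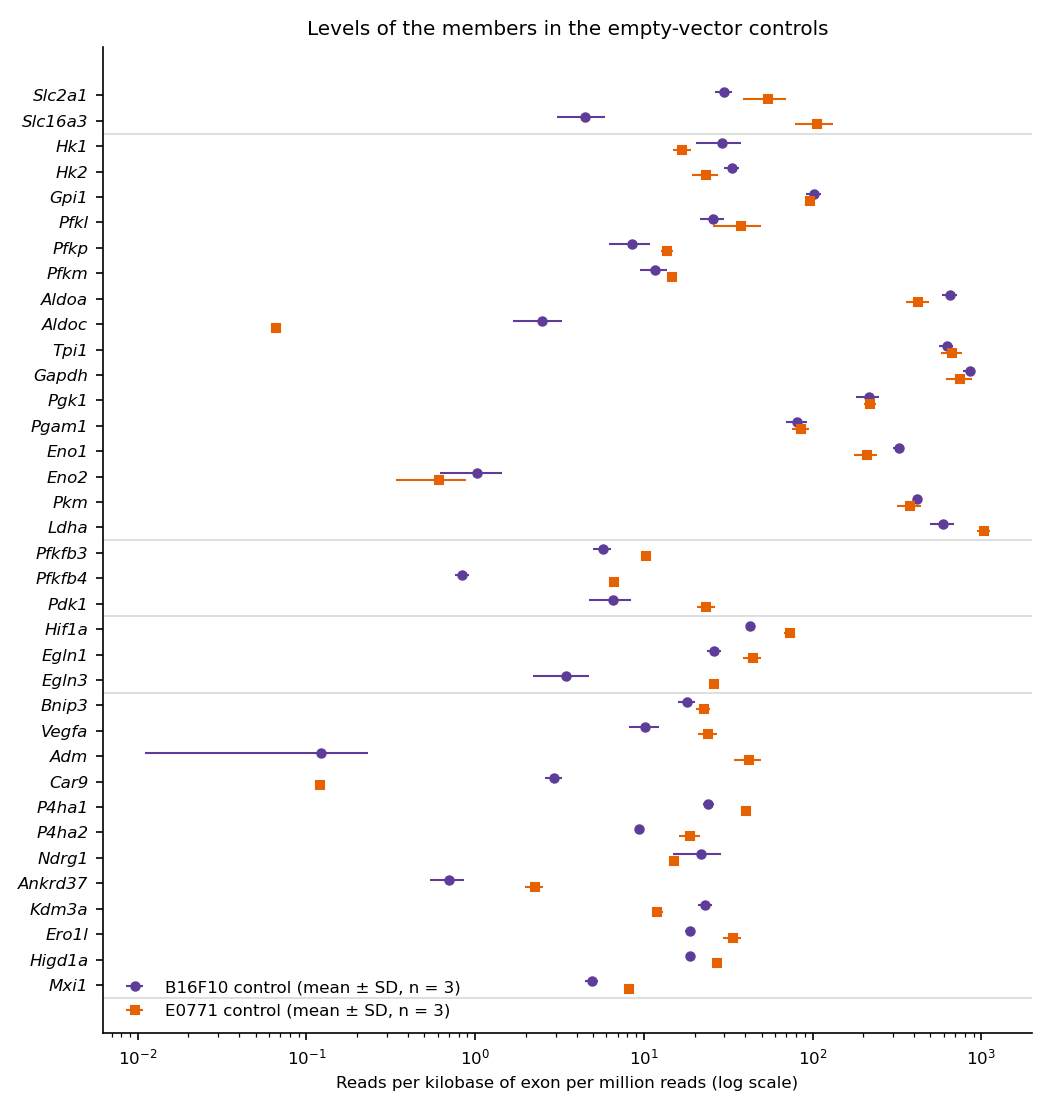
Level of each of the 36 genes in the control libraries, in RPKM on a log axis, as mean and SD of 3 libraries, with B16F10 as circles and E0771 as squares and grey lines between roles. Gapdh, Aldoa, Tpi1, Ldha and Pkm reach the highest levels in both lines, while Adm is lowest in B16F10 (0.122) and Aldoc lowest in E0771 (0.0663).

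Between the control libraries, regulators, transporters and most hypoxia genes were higher in E0771, while the enzymes were split. In the limma fit of E0771 control against B16F10 control, 20 of 36 members were higher and 8 lower in E0771, and limma called 70.2% of the 14859 genes tested (33.4% higher, 36.8% lower). The median log2 difference over the members was 0.58, beside -0.04 over all tested genes. Among the 16 enzymes 4 were higher and 5 lower, with a median of -0.05. All 3 regulators, both transporters and all 3 sensor genes were higher, as were 8 of the 12 HIF targets outside glycolysis, with 3 lower and a median of 0.80. These controls differ in line and in tumour type, which cannot be told apart.

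Adm showed the widest gap. Its values were 1.92, 3.89 and 12.4 scaled reads in B16F10 controls and 1709, 2430.4 and 2307 in E0771 controls. The ratio of means was 354-fold, and it ran from 264-fold without B16F10 control 1 to 739-fold without B16F10 control 3. The limma log2 difference was 8.53 (SE 0.46, adjusted p = 3.03e-11). Slc16a3, the lactate exporter MCT4, had 782, 918 and 475 in B16F10 and 14039, 22906 and 16538 in E0771, with a log2 difference of 4.64 (SE 0.26, limma adjusted p = 4.98e-11). Pfkfb4, which makes the phosphofructokinase activator fructose 2,6-bisphosphate, differed by 3.04, Egln3, a HIF prolyl hydroxylase induced by HIF, by 3.03, Pdk1, the kinase that turns off pyruvate dehydrogenase, by 1.92, and Vegfa by 1.29, all higher in E0771 with no overlap between the lines. Lower in E0771 were Aldoc, by -4.93 (tested through the B16F10 libraries, since no E0771 library reached 10 scaled reads), Car9, by -4.40, Kdm3a, a histone demethylase, by -0.88, Hk1 by -0.69, Eno1 by -0.59, Aldoa by -0.57, Hk2 by -0.46 and Ndrg1 by -0.43. Adm and Car9, both HIF targets, differed between the lines in opposite directions. The calls that ended when 1 library was left out were Ndrg1 without B16F10 control 3 (-0.18), E0771 control 1 (-0.43) or 2 (-0.40), Pfkl without B16F10 control 1 (0.55), 3 (0.48) or E0771 control 2 (0.34), Pfkm without B16F10 control 3 (0.28) or E0771 control 2 (0.36) or 3 (0.42), and Hk2 without E0771 control 1 (-0.31).

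With MRTFA 16 of the 35 tested members changed in E0771, while 0 of 36 passed in B16F10, where only Hk2 passed with the replicate number as a block. Limma without the block called 1.55% of all 13517 tested genes in B16F10. In E0771, 10 rose and 6 fell, where limma called 38.4% of all 13189 tested genes, 20.3% higher and 18.1% lower, so the count of called members was near that of genes at large. The median member moved by 0.03 on the log2 scale, beside -0.02 over all tested genes. Of the 20 tested glycolysis genes 6 rose and 3 fell (median 0.12), and of the 15 hypoxia genes 4 rose and 3 fell (median 0.02), so both lists split in direction. Aldoc was not tested in E0771, where its values lay between 3.77 and 9.0 scaled reads, and Car9 passed the filter on low values there only through the 3 MRTFA libraries and 1 MRTFB library. Car9 is counted among the 10 members and the 4 hypoxia genes that rose, but its call is no support for a change. In these libraries the mammary epithelial markers and the share of reads in the 10 most abundant genes (6.96 to 7.55% with MRTFA, 4.73 to 5.16% in the other 15 libraries) moved with the group, and their part in the result was not tested. In bulk libraries fewer cells of a type and less RNA per cell cannot be told apart.

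Adm, the gene for adrenomedullin, rose most of all members. It had 1709, 2430.4 and 2307 scaled reads in E0771 controls, 15571, 20598 and 24964 with MRTFA, and 1713, 2763 and 3163 with MRTFB. The lowest MRTFA library stood above the highest of the other 6, with a 9.48-fold ratio of means (limma log2 difference 3.23, SE 0.24, adjusted p = 2.81e-06, 3.08 to 3.42 when each library was left out). Per length it moved from 14th to 6th of the 36 members, at 373 ± 78.9 RPKM (SD, n = 3). B16F10 gave 1.92, 3.89 and 12.4 in controls, 12.1, 18.6 and 15.3 with MRTFA, and 9.53, 5.18 and 19.0 with MRTFB. Those rest on 2 to 19 reads per library, the MRTFA and control groups overlapped, and the log2 difference of 1.48 (SE 0.59) did not pass (limma adjusted p = 0.429).

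Vegfa, the other secreted HIF target set beside Adm, gave no call and overlapped its controls. E0771 gave 2803, 3584 and 3373 scaled reads in controls, 2790.1, 3415 and 2861 with MRTFA, and 3199.7, 3790.0 and 3954 with MRTFB. The MRTFA difference was -0.10 (95% interval -0.38 to 0.17, limma adjusted p = 0.536), an interval that leaves out changes of the size seen for Adm. In B16F10 the values were 1367, 1589 and 1055 in controls, 906, 1075 and 981 with MRTFA, and 921, 959 and 1070.4 with MRTFB, with every MRTFA and MRTFB library below the controls 1 and 2 but not all below control 3. Neither B16F10 difference passed (-0.42, limma adjusted p = 0.308 with MRTFA, and -0.43, adjusted p = 0.372 with MRTFB), and without B16F10 control 3 the MRTFA difference was -0.58 (adjusted p = 0.0346).

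**Figure D2:**
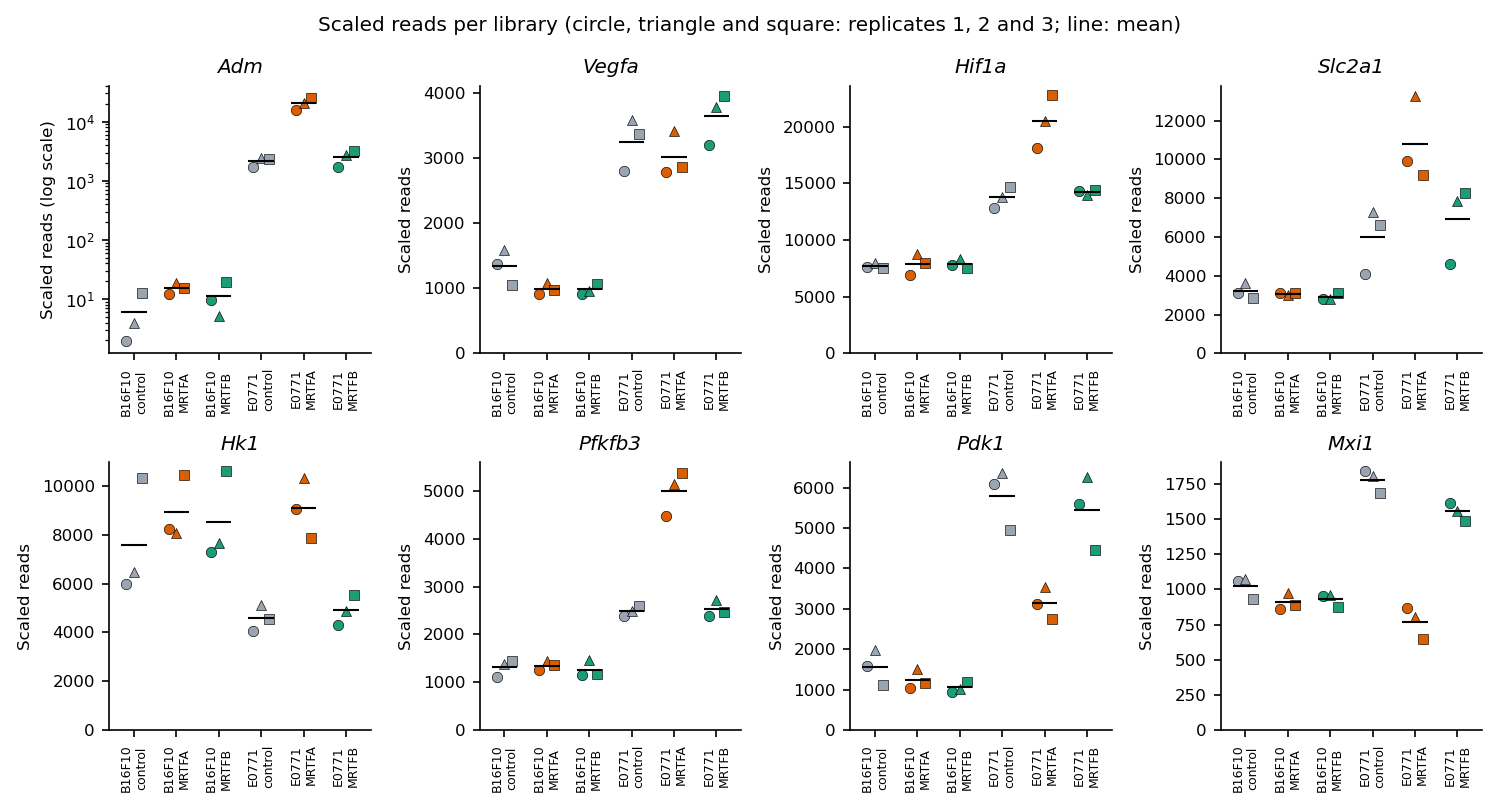
Scaled reads of 8 genes in all 18 libraries, with circle, triangle and square for replicates 1, 2 and 3 and a line at each group mean; the Adm axis is logarithmic and the others start at 0. The E0771 MRTFA libraries lie apart from the other E0771 libraries for Adm, Hif1a, Slc2a1, Hk1, Pfkfb3, Pdk1 and Mxi1 and among them for Vegfa.

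At glucose entry, Slc2a1, the glucose transporter GLUT1, rose with MRTFA in E0771. Its scaled reads were 4113, 7315 and 6643 in controls, 9922, 13262 and 9185 with MRTFA, and 4626, 7846 and 8292 with MRTFB. MRTFA libraries stood above all others, but controls ranged widely, and the difference of 0.87 (SE 0.26, limma adjusted p = 0.0226) lost its call without control 1 (0.61, adjusted p = 0.0867), MRTFA 1 (0.92, 0.05) or MRTFA 2 (0.71, 0.0924). B16F10 had 3125, 3625 and 2883 in controls, 3114, 3011 and 3096 with MRTFA and 2806, 2822 and 3118 with MRTFB, all overlapping. Slc16a3, which exports lactate, was at 13034 to 18807 with MRTFA beside 14039 to 22906 in E0771 controls (limma log2 difference -0.09, adjusted p = 0.783).

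The hexokinases, which trap glucose as glucose 6-phosphate, behaved unlike each other. Hk1 had 4056, 5130.3 and 4552 scaled reads in E0771 controls, 9034, 10315 and 7876 with MRTFA, and 4291, 4875 and 5540.0 with MRTFB. The groups did not overlap, and Hk1 rose by 0.98 (SE 0.13, limma adjusted p = 0.000192). In B16F10 it had 5981, 6466 and 10317 in controls, 8251, 8088 and 10429 with MRTFA, and 7303, 7643 and 10629 with MRTFB, where replicate 3 of each group was the highest. Hk2 had 3579, 4839 and 4919 in E0771 controls, 3564, 4669.5 and 4878 with MRTFA and 3766, 5022 and 5216 with MRTFB, which overlapped (MRTFA difference -0.02, 95% interval -0.40 to 0.35, limma adjusted p = 0.930). B16F10 gave 5876, 6727 and 5561 for Hk2 in controls, 5273, 5319 and 4922 with MRTFA and 5281, 5635 and 5274 with MRTFB. All 3 MRTFA libraries were below the controls there, by -0.22 (limma adjusted p = 0.380, and 0.0388 with the replicate number as a block).

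Upper-glycolysis enzymes after hexokinase moved both ways. Gpi1, glucose 6-phosphate isomerase, had 19408, 21273 and 19039.7 scaled reads in E0771 controls, 15114, 16792 and 15579 with MRTFA, and 18292, 21421 and 19306 with MRTFB. It fell by 0.33 on the log2 scale (SE 0.09, limma adjusted p = 0.0134) with no overlap, and lost the call only without control 2 (-0.28, adjusted p = 0.0510). Pfkp, the platelet-type phosphofructokinase of the committed step, rose by 0.61 (SE 0.12, limma adjusted p = 0.00259), from 5987, 6276 and 5278 in controls to 9416, 9969.8 and 7564 with MRTFA, with 6992, 7559 and 6165 under MRTFB. Its lowest MRTFA library was just above its highest MRTFB library. Pfkm, the muscle-type isoform, had 1490.2, 1668 and 1521 in controls, 2125, 2240.5 and 1778 with MRTFA and 1445, 1510.0 and 1429 with MRTFB, a rise of 0.39 (SE 0.10, limma adjusted p = 0.0117) that missed the threshold without MRTFA 2 (0.32, adjusted p = 0.0646). Pfkl, the liver-type isoform, was at 7179 to 12405 with MRTFA and 6259 to 10846 in controls (0.31, limma adjusted p = 0.359). Aldoa rose by 0.44 (SE 0.15, limma adjusted p = 0.0397), with 34787, 45843 and 36629 in controls, 51779.8, 59877 and 46895 with MRTFA and 32512, 44341 and 41797 with MRTFB. The Aldoa call ended without control 1 (0.36), control 3 (0.40), MRTFA 1 (0.45) or MRTFA 2 (0.34), and with upper-quartile scaling (0.38, limma adjusted p = 0.0552).

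For the same 4 enzymes B16F10 showed no separation. Gpi1 had 20857, 21261 and 17887 scaled reads in controls, 20016, 18034 and 16856 with MRTFA and 19135, 18813 and 16746 with MRTFB. Pfkp had 3903, 4091 and 2408, then 3327, 3139 and 2808, then 3263, 2899 and 2559 in the same order of groups. Pfkm had 1371, 1208 and 980.3, then 1441, 1371 and 1041, then 1461, 1404 and 973. In each of these replicate 3 was the lowest of its group. Aldoa had 59276, 62863 and 51795 in controls, 57331, 48032 and 54995 with MRTFA and 49656, 49855 and 52534 with MRTFB, with overlapping ranges.

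Among the members, lower glycolysis changed at 1 of its tested steps with MRTFA in E0771 in the main limma fit with all libraries. Pgam1, phosphoglycerate mutase, had 5107, 6101 and 4988 scaled reads in E0771 controls, 3507, 4351 and 3873 with MRTFA, and 4381, 5531 and 4624 with MRTFB. It fell by 0.46 on the log2 scale (SE 0.12, limma adjusted p = 0.0111) with no overlap, and lost the call only without MRTFA 1 (-0.39, adjusted p = 0.0505). B16F10 had 4761, 5659 and 4290.5 in controls, 4447, 5016 and 4623 with MRTFA and 4375, 4688 and 4552 with MRTFB for Pgam1, all overlapping. Ldha had 103103, 119165 and 103393 in E0771 controls, 79433, 103184 and 91036 with MRTFA and 92076, 118769 and 97902 with MRTFB. The highest MRTFA library lay between controls 1 and 3, and the Ldha difference of -0.26 did not pass (95% interval -0.56 to 0.04, limma adjusted p = 0.165). B16F10 gave 59654, 70066 and 50639.8 for Ldha in controls, 56172, 64397 and 57179 with MRTFA and 50464, 54860.1 and 56748 with MRTFB. Pgk1, phosphoglycerate kinase, had 17222, 15333 and 14563 in E0771 controls, 10793, 15304 and 13964 with MRTFA and 14369, 16155 and 13272 with MRTFB (MRTFA difference -0.25, limma adjusted p = 0.170). In B16F10 Pgk1 was at 14554, 17038 and 12529, at 13507, 17513 and 14424, and at 12834, 14090.4 and 14229 in the same order of groups, all overlapping. The other members of these steps did not pass in E0771 with MRTFA in that fit: Tpi1 differed by -0.36 (limma adjusted p = 0.0967), Pkm, pyruvate kinase, by 0.38 (0.0817), Gapdh by 0.17 (0.462), Eno1, an enolase, by 0.08 (0.703), and the low-level Eno2 by -0.43 (0.454). Pkm passed in DESeq2 (0.40, adjusted p = 0.0330) and in limma without control 2 (0.49, adjusted p = 0.0476). Tpi1 passed in limma with upper-quartile scaling (-0.42, adjusted p = 0.0453) and without MRTFA 2 (-0.50, adjusted p = 0.0394).

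Regulators of glycolytic flux gave both the steadiest rise and a clear fall. Pfkfb3, which makes the allosteric activator of phosphofructokinase, had 2381, 2486 and 2594 scaled reads in E0771 controls, 4472, 5135 and 5380.3 with MRTFA, and 2388, 2718 and 2457 with MRTFB. It rose by 1.0 (SE 0.09, limma adjusted p = 1.33e-05), with 0.95 to 1.08 when each library was left out. B16F10 had overlapping groups for Pfkfb3, with 1112, 1379.8 and 1453 in controls, 1244, 1441 and 1348 with MRTFA and 1149, 1458 and 1177 with MRTFB. Pdk1, which diverts pyruvate from the mitochondrion, went the other way in E0771, with 6089, 6354 and 4954 in controls, 3128, 3534 and 2754 with MRTFA and 5590.1, 6262 and 4469 with MRTFB. The fall of Pdk1 was 0.88 on the log2 scale (SE 0.14, limma adjusted p = 0.000794), and the highest MRTFA library was below the lowest of the other 6. In B16F10 Pdk1 had 1589, 1984 and 1110.1 in controls, 1043, 1508 and 1168 with MRTFA and 937, 1027 and 1194 with MRTFB, which overlapped (differences -0.31 and -0.54, limma adjusted p = 0.781 and 0.457). Pfkfb4 was higher in all 3 E0771 MRTFA libraries, at 1147 to 1236 beside 949 to 1082, without passing the test (0.21, limma adjusted p = 0.101).

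Of the HIF sensor genes Hif1a and Egln3 rose with MRTFA in E0771, and Egln1 did not pass. Hif1a, the oxygen-regulated HIF subunit, had 12813, 13758 and 14684 scaled reads in E0771 controls, 18116, 20477 and 22780.2 with MRTFA, and 14294, 13961 and 14420.0 with MRTFB, a rise of 0.57 (SE 0.10, limma adjusted p = 0.000945) with no overlap. B16F10 gave 7604, 7968 and 7512 for Hif1a in controls, 6933, 8787 and 7936 with MRTFA and 7802, 8306 and 7548 with MRTFB, all overlapping. Since HIF activity is set largely through the protein's stability, this transcript value does not measure it. Egln3 had 2049, 2270.2 and 2253 in E0771 controls, 3205, 4226 and 3045 with MRTFA, and 1679, 2161 and 1945 with MRTFB, and rose by 0.66 (SE 0.13, limma adjusted p = 0.00315). In B16F10 Egln3 had 320.3, 354 and 167 in controls, 313, 317 and 333 with MRTFA and 173, 174 and 170.4 with MRTFB, so the MRTFB libraries lay just above control 3 and below the other 2. The Egln3 difference of -0.63 for MRTFB in B16F10 had a limma adjusted p = 0.452, and -0.96 (adjusted p = 0.00813) without control 3. Egln1, the main oxygen-sensing hydroxylase, differed by 0.02 with MRTFA in E0771 (limma adjusted p = 0.923).

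HIF targets outside glycolysis did not follow Adm. Of the 12, Adm was called higher, Mxi1, P4ha1 and Bnip3 were called lower, and 7 did not pass, with a median of -0.14 beside -0.02 over all tested genes. Car9 was also called higher, but it would not have passed the filter on low values without the MRTFA libraries. Its call is therefore no support for a change. Mxi1, a MAX partner that opposes MYC, had 1844, 1811 and 1685 scaled reads in E0771 controls, 865, 801 and 649.9 with MRTFA, and 1616, 1562 and 1489.5 with MRTFB. It fell by 1.21 on the log2 scale (SE 0.11, limma adjusted p = 1.40e-05), the deepest fall of the set, and between 1.09 and 1.30 when each library was left out. B16F10 had 1060.1, 1074 and 935 for Mxi1 in controls, 861, 977 and 888 with MRTFA and 955, 958 and 878 with MRTFB, which overlapped (MRTFA difference -0.17, limma adjusted p = 0.672). P4ha1, a collagen prolyl hydroxylase, had 5243, 5366 and 5275 in E0771 controls, 3487, 4216 and 4314 with MRTFA and 4348, 5349.9 and 4939.8 with MRTFB, a fall of 0.41 (SE 0.10, limma adjusted p = 0.00996). In B16F10 P4ha1 was at 2823, 2934 and 3325, at 2583, 3038 and 3595, and at 2376, 2370.5 and 3313 in the same order of groups. Bnip3, a mitophagy receptor, had 1659, 1769 and 1458 in E0771 controls, 987, 1542 and 812 with MRTFA, and 1607, 1952 and 1360.5 with MRTFB. MRTFA 2 reached into the control range, and the Bnip3 fall of 0.60 (SE 0.21, limma adjusted p = 0.0478) lost its call without any 1 of the 3 controls (-0.58, -0.53 and -0.67), MRTFA 1 (-0.54) or MRTFA 3 (-0.40), with TMM scaling (limma adjusted p = 0.0541) and in edgeR (0.0871). B16F10 gave 1247, 1377 and 1093 for Bnip3, then 770.3, 1165 and 1063, then 761, 787 and 1169.

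Car9 was near the floor in E0771, with 9.06, 9.01 and 8.41 scaled reads in controls, 18.9, 15.8 and 17.8 with MRTFA, and 14.6, 9.41 and 9.93 with MRTFB. The MRTFA libraries were the highest, but the rise of 0.91 (SE 0.28, limma adjusted p = 0.0266) rests on 17 to 19 reads per MRTFA library and ended whichever of the 6 libraries was left out (0.85 to 0.98, adjusted p 0.0572 to 0.0998) and in DESeq2 (adjusted p = 0.141). Car9 was tested there only because the MRTFA libraries passed the filter, so this call is no support for a change. In B16F10, where Car9 was higher, values were 182, 204 and 235 in controls, 213, 193 and 277 with MRTFA and 166, 210.2 and 238 with MRTFB, all overlapping. The members that did not pass in E0771 with MRTFA were P4ha2 (0.31), Ndrg1 (0.21), Kdm3a (0.03), Vegfa (-0.10), Higd1a (-0.17), Ero1l (-0.26) and Ankrd37 (-0.37), with limma adjusted p from 0.102 for Ero1l to 0.811 for Kdm3a. With upper-quartile scaling Ero1l passed (-0.32, limma adjusted p = 0.0435), as did the enzyme Tpi1 (-0.42, 0.0453).

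**Figure D3:**
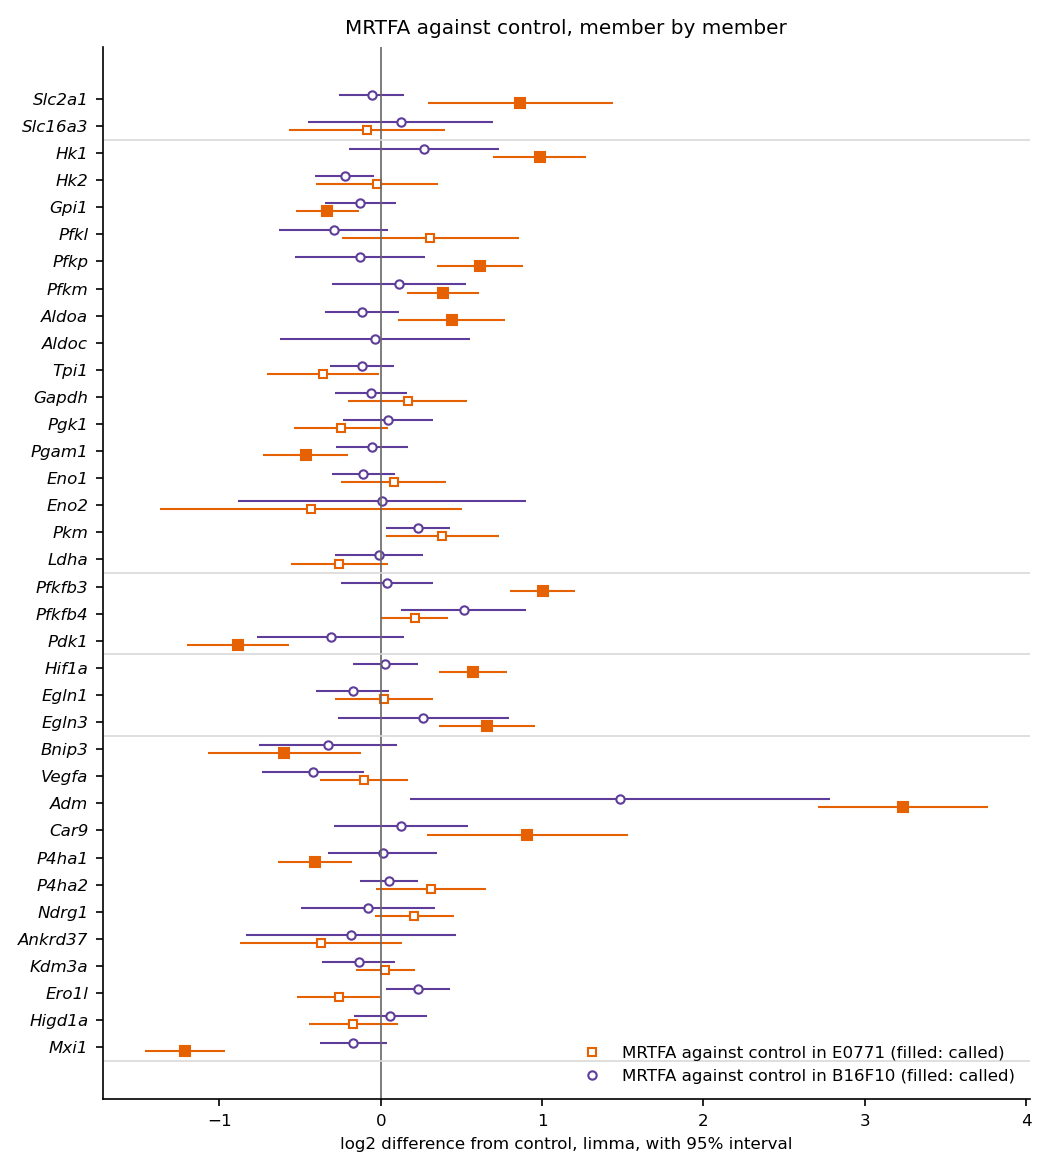
log2 difference between MRTFA and control for each gene with its 95% interval from limma, E0771 as squares and B16F10 as circles, filled where the adjusted p passed, grouped by role. In E0771 filled squares stand on both sides of 0, from Mxi1 at -1.21 to Adm at 3.23, and no B16F10 circle is filled; Aldoc has no E0771 value.

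In B16F10 no member passed with MRTFA or MRTFB in the fit without the replicate block. With MRTFA, limma called 0 of 36, beside 1.55% of the 13517 genes tested (1.34% higher, 0.207% lower), and 4 members were higher and 2 lower at an unadjusted p under 0.05; edgeR and DESeq2 called 0 as well. The 4 were Adm, Pfkfb4, Pkm and Ero1l and the 2 were Vegfa and Hk2, named after their values were seen. Pfkfb4 had 113, 123 and 140.3 scaled reads in controls and 199, 149 and 192 with MRTFA, a difference of 0.51 with no overlap (limma adjusted p = 0.309). With MRTFB, limma, edgeR and DESeq2 called 0 of 36, where limma called 0.126% of all genes, 0.0148% higher and 0.111% lower, and 6 were lower at an unadjusted p under 0.05 and 0 higher. Those 6, also named after their values were seen, were Vegfa, Pfkl, Pdk1, Egln3, Bnip3 and Tpi1, and 28 of the 36 differences were below 0, with a median of -0.14 beside 0.00 over all tested genes. The 2 comparisons share their controls, so a shift of the control libraries enters both. With the replicate number as a block, which paired these libraries, Hk2 passed with MRTFA (-0.22, limma adjusted p = 0.0388) and Aldoc with MRTFB (-0.48, limma adjusted p = 0.0462). Over all 13517 genes that block called 855 with MRTFA and 603 with MRTFB. Between MRTFB and MRTFA in B16F10, limma called 0 of 36, where 1.09% of all genes were called, 0.0148% higher and 1.08% lower, with 0 higher and 2 lower at an unadjusted p under 0.05; edgeR called 0 and DESeq2 1. Those 2 were Slc16a3 (-0.62) and Egln3 (-0.89, limma adjusted p = 0.213, and 0.0406 with the block and 0.0235 in DESeq2). Here and below, the shares of all genes refer to the adjusted p only. Counts at an unadjusted p under 0.05 have no such share beside them and are no result about the members.

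With MRTFB no member passed in E0771 either. Limma called 0 of 35, beside 0.144% of all 13189 genes, 0.136% higher and 0.00758% lower, 0 passed at an unadjusted p under 0.05, and edgeR and DESeq2 called 0. Differences ran from -0.19 for Mxi1 and Egln3 to 0.30 for Car9, and for Adm the difference was 0.21 (95% interval -0.31 to 0.74). Those intervals do not show that MRTFB had no effect, but for Pfkfb3 (0.02, -0.18 to 0.22) and Pdk1 (-0.10, -0.42 to 0.22) they leave out changes of the size seen with MRTFA. Set directly against MRTFA in E0771, MRTFB libraries were lower for 7 members and higher for 3 of 35, where 33.6% of all genes were called, 14.5% higher and 19.1% lower, and with upper-quartile scaling the split was 6 lower and 8 higher. Over all genes that scaling turned it from 1916 higher and 2514 lower to 2670.0 and 2280.0. Lower with MRTFB were Adm (-3.02), Pfkfb3 (-0.98), Hk1 (-0.89), Egln3 (-0.85), Hif1a (-0.52), Pfkm (-0.48) and Pfkp (-0.37), and higher were Mxi1 (1.02), Pdk1 (0.79) and Gpi1 (0.31). This comparison shares the MRTFA libraries with the one before and is no independent repeat of it. Mkl1 stood far above its controls in the E0771 MRTFA libraries, and Mkl2 less far above its controls in the E0771 MRTFB libraries. The kind of transgene and its level therefore cannot be told apart here. Pfkp lost this call without MRTFA 1 (-0.34) or 2 (-0.29) or MRTFB 1 (-0.39) or 3 (-0.30), and Gpi1 without MRTFA 1 (0.28) or 3 (0.30) or MRTFB 2 (0.25). With the replicate block, which paired these libraries, 10 were higher and 10 lower, beside 2718 higher and 3062 lower of all 13189 tested genes. The members that joined the calls were Slc2a1 (-0.67), Aldoa (-0.42), Pkm (-0.37), Tpi1 (0.29), Pgam1 (0.31), Eno2 (0.69), Bnip3 (0.60), Vegfa (0.27), P4ha1 (0.29) and Ero1l (0.30).

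The response to MRTFA differed between the lines for 7 of 36 members when the difference itself was tested, a share near that of all tested genes. Mkl1 with MRTFA was far above its controls in E0771 but overlapped them in B16F10. Line and level of the transgene therefore cannot be told apart in this test. Limma called 5 higher and 2 lower in E0771 than in B16F10 of 36, beside 21.1% of all 14859 tested genes, 12.6% higher and 8.55% lower (4 and 3 with upper-quartile scaling, which over all genes turned 1867 higher and 1271 lower into 1669 and 1786). Pfkfb3 differed by 0.96 (SE 0.16, adjusted p = 0.000403), Hif1a by 0.54 (SE 0.13, adjusted p = 0.00744) and Mxi1 by -1.04 (SE 0.14, adjusted p = 6.34e-05), and each kept the call whichever of the 12 libraries was left out. Slc2a1 (0.92, adjusted p = 0.0394), Pfkp (0.74, 0.0333), Aldoa (0.56, 0.0452) and Ero1l (-0.49, 0.0280) passed limma with all libraries but lost the call without 8, 8, 8 and 5 of the 12 libraries, at values of 0.67 to 0.97, 0.60 to 0.76, 0.46 to 0.58 and -0.49 to -0.38. Ero1l, an oxidase of the endoplasmic reticulum, had 2805, 3008 and 3267 scaled reads in B16F10 controls and 3322, 3849.8 and 3493 with MRTFA, against 4919.8, 5702 and 6271 and 3983, 5042 and 5100.2 in E0771. It was thus higher with MRTFA in B16F10 and mostly lower in E0771, without passing in either line alone, and MRTFB gave 3399, 3498 and 3054 in B16F10 and 5536, 5902 and 5830.2 in E0771. Adm did not pass this test (1.75, SE 0.65, limma adjusted p = 0.0661), but passed with a pseudocount of 5 in place of 1 (2.26, adjusted p = 0.00279), in DESeq2 (1.92, adjusted p = 0.0173) and without B16F10 control 1 (2.24, limma adjusted p = 0.0192). For MRTFB the lines differed for 0 of 36 members in limma, edgeR and DESeq2, where limma called 0.114% of all genes, 0.101% higher and 0.0135% lower, and 1 member, Vegfa (0.59, adjusted p = 0.601), was higher at an unadjusted p under 0.05.

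Glycolytic enzymes and the other HIF targets were also followed as lists over all 6 groups. For each library the median over genes of the log2 value minus the mean of its line's controls was taken, as a description without a test. For the 16 enzymes it was -0.08, 0.15 and -0.06 in E0771 controls, 0.06, 0.17 and 0.05 with MRTFA and -0.23, 0.13 and 0.05 with MRTFB. In B16F10 it was 0.00, 0.12 and -0.16 in controls, -0.02, -0.10 and -0.09 with MRTFA, and -0.14, -0.11 and -0.13 with MRTFB. In E0771 the 3 spans overlapped. In B16F10 the MRTFA and MRTFB spans each lay within that of the controls, and the MRTFB values were all below the MRTFA values. For the 12 HIF targets outside glycolysis it was -0.02, 0.05 and -0.02 in E0771 controls, -0.18, 0.07 and -0.16 with MRTFA and -0.06, 0.09 and 0.03 with MRTFB, while B16F10 gave -0.09, 0.03 and 0.07, then -0.23, -0.01 and 0.06, then -0.23, -0.04 and -0.08. The summed scaled reads of the HIF targets did not overlap, at 30466 to 33797 in E0771 controls and 40526 to 51771 with MRTFA, a sum in which Adm alone supplied 15571 to 24964.

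**Figure D4:**
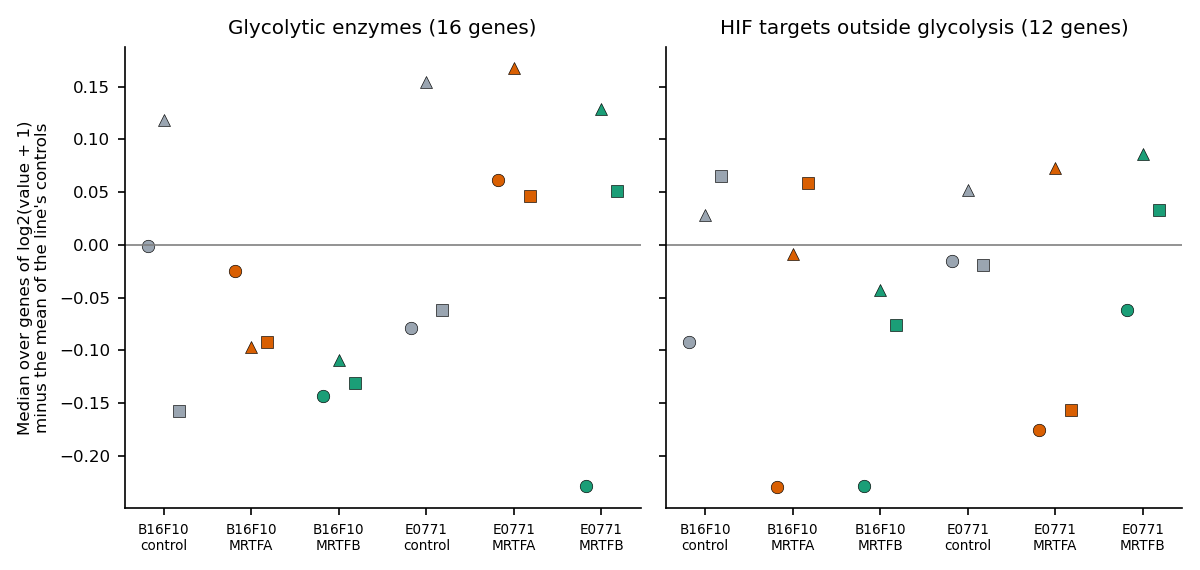
Median over genes of log2(value + 1) minus the mean of the same line's control libraries, 1 point per library (circle, triangle and square for replicates 1, 2 and 3), for 16 glycolytic enzymes and 12 HIF targets outside glycolysis. Points of the MRTFA and MRTFB groups overlap those of the controls in E0771, and replicate 2 is the highest point of each E0771 group in both panels.

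Other genes of the pathway, from lists chosen with earlier results known, were followed too. Of 11 tested HIF pathway components outside the set, 4 rose and 0 fell with MRTFA in E0771 (median 0.24), beside 20.3% higher and 18.1% lower over all tested genes. Epas1 and Hif3a, 2 of the 4, passed the filter on low values only through the MRTFA libraries, so their call is no support for a change and only their values are given. Epas1, which encodes the second HIF alpha subunit, had 1.01, 2.0 and 2.8 scaled reads in E0771 controls, 302, 347 and 185 with MRTFA and 5.63, 4.71 and 9.93 with MRTFB, from 6 reads over the control group. In B16F10 Epas1 stood at 415 to 665 in controls and 362 to 609 with MRTFA, all above the 3 E0771 MRTFA libraries. Hif3a, an inhibitory HIF alpha subunit, had 0 reads in E0771 controls and 43.8, 23.2 and 42.8 scaled reads with MRTFA, which makes it at least 37.0-fold higher, taking 3 reads over the control group. Cited2, a competitor of HIF for p300, rose by 0.63 and Tceb1, the elongin C of the VHL complex, by 0.45 (limma adjusted p = 0.00364 and 0.00890).

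Of 22 other tested genes of glucose and pyruvate handling, 8 rose and 3 fell with MRTFA in E0771 (median -0.05), again beside 20.3% and 18.1% of all genes. Slc2a4 and Slc2a6, 2 of the 8, passed the filter only through the MRTFA libraries, so their calls are no support for a change. Slc2a4, the insulin-responsive transporter GLUT4, had 11.08, 11.02 and 4.67 scaled reads in controls and 291, 249.9 and 153 with MRTFA. Eno3, the muscle enolase, had 993, 1429 and 1479 in controls and 3943, 4512 and 3713 with MRTFA, a rise of 1.66 (limma adjusted p = 8.06e-05) that contrasts with the 0.08 of Eno1. Mpc1, a subunit of the mitochondrial pyruvate carrier, rose by 0.92 and Slc16a1, the monocarboxylate transporter MCT1, fell by 0.64 (limma adjusted p = 3.22e-05 and 9.29e-05).

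Of 29 other tested HIF targets 8 rose and 8 fell (median 0.06), beside the same 20.3% and 18.1%. Gys1, glycogen synthase, had 3976, 5131 and 4397 scaled reads in E0771 controls and 12049.7, 14187 and 10638 with MRTFA, a rise of 1.45 (limma adjusted p = 8.60e-06), and Loxl2, a lysyl oxidase, rose by 1.24 (adjusted p = 5.32e-06). Ppfia4 was counted among the genes called higher with MRTFA in both lines, but in both it passed the filter only through the MRTFA libraries. Its calls are therefore no support for a change, and only its reads and their ratio are given. Its scaled reads went from 2.01, 4.01 and 0 to 53.8, 57.6 and 31.3 in E0771 and from 0, 0.974 and 0.954 to 39.3, 19.7 and 42.0 in B16F10. From 2 reads, the B16F10 ratio was 52.3, with a counting interval of 14.3 to 442 (95%, exact binomial). Ccng2, a cyclin, was the other call in B16F10, and there it fell by 0.76 on the log2 scale (limma adjusted p = 0.0282) while it rose by 1.05 in E0771 (adjusted p = 0.00254), a difference between lines of 1.81 (limma adjusted p = 7.25e-05). Among 9 tested partners of adrenomedullin and VEGF, Figf rose by 1.42, Flt1, a VEGF receptor, by 1.73 and Nrp2 by 0.31, and Vegfb fell by 0.38 (limma adjusted p from 0.00018 for Figf to 0.0449 for Vegfb). With MRTFB limma called 0 of 70 genes of these 4 lists in B16F10, where 0.126% of all genes were called, and 0 of 71 in E0771, where 0.144% were. At an unadjusted p under 0.05, 1 was higher and 9 lower in B16F10, and 4 higher and 0 lower in E0771. No share of all genes at that threshold stands beside these counts.

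**Figure D5:**
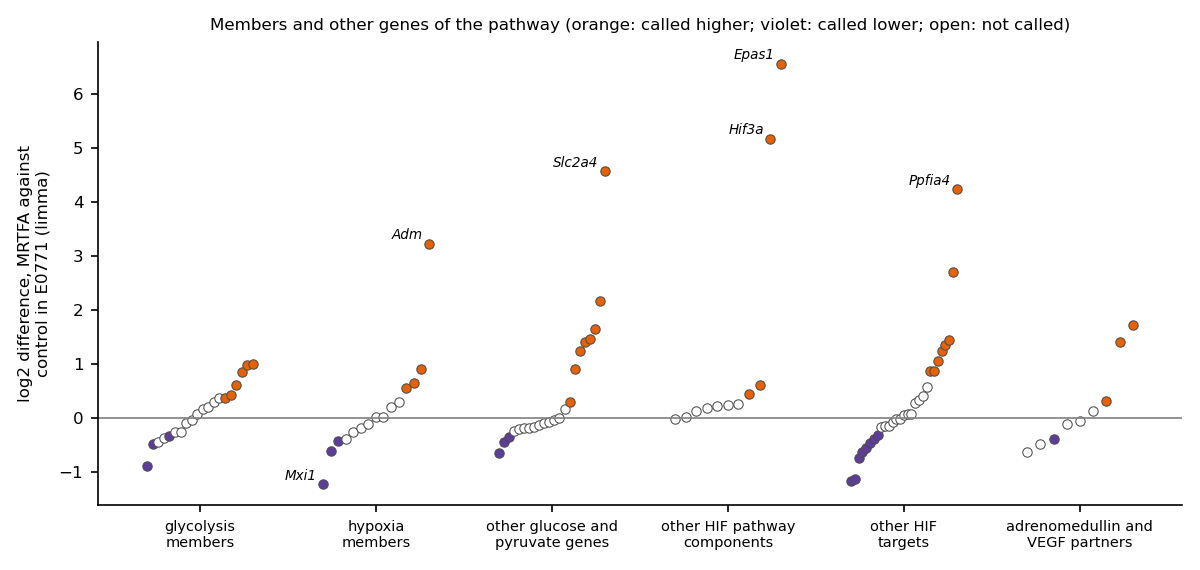
log2 difference between MRTFA and control in E0771 (limma) for the tested genes of 6 lists, 1 point per gene in order of size, orange where called higher, violet where called lower and open where not called. The members apart from Adm lie between -1.21 and 1.0, while Epas1, Hif3a, Slc2a4 and Ppfia4 of the neighbouring lists exceed 4. Those genes passed the filter on low values only through the MRTFA libraries, so their calls are no support for a change.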

How the data were processed

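RNA-seq of 18 libraries was deposited by the authors as 1 table of signal values per gene, that is, reads per gene divided by a size factor of each library. Per the submitters' processing notes the tools were cutadapt 1.6, STAR 2.5.0a, HTSeq 0.5.3 and DESeq, with the mm10 build. The annotation release, strand setting and counting mode were left unstated (not given in the sources used here). Every value was a whole multiple of what 1 read is worth in its library, and 100% of values came out whole within 0.001 read, so reads were recovered for depth, for RPKM and for count tests.

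Values were analysed as log2(value + 1) with limma 3.58.1 (R 4.3.3, trended variance) over genes with at least 10 scaled reads in at least 3 fitted libraries. p-values were adjusted over all tested genes by Benjamini-Hochberg, and a gene was called at an adjusted p under 0.05. Comparisons within a line were fitted on its 9 libraries, and those between lines on all 18. Fold changes are on the log2(value + 1) scale, which understates the change of low genes. Alternatives were pseudocounts of 0.5 and 5, no filter, a minimum of 50, upper-quartile and TMM scaling, only the groups compared, the replicate number as a block, each library left out, and edgeR 4.0.16 and DESeq2 1.42.0 on the recovered reads. Over all genes with MRTFA against control, limma, edgeR and DESeq2 called 209, 213 and 357 in B16F10 and 5064, 4908 and 5172 in E0771. The code was tested on simulated data.

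The labels number replicates 1 to 3 in every group without saying what a number shares. Running numbers in the column labels go through all groups of a replicate number before the next, and do not say whether processing followed them. Deviations of same-numbered libraries from their group means correlated at 0.375 or more in every pair of the B16F10 comparisons, at 0.525 or more for MRTFB against control in E0771 and at 0.124 or more for MRTFB against MRTFA in E0771, and these were taken as paired from the data. The weakest pair was at 0.0789 for MRTFA against control in E0771, so that comparison was not, nor were those between lines. No library was a copy of another.

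The members and the lists were chosen with earlier results of these data known. Values in every library are given for members called against control or between lines and for Adm, Vegfa, Hif1a, Slc2a1, Hk2, Ldha, Pdk1 and Pgk1, and from the other lists at most 4 called genes per comparison, by lowest adjusted p. A result that this rule would name is not reported here. RPKM used the union of exons of GENCODE M21 on GRCm38, and promoters came from RefSeq on GRCm38.p6. Immune and endothelial or fibroblast markers had 2 of 7 and 4 of 7 genes in the table, with sums of 21.4 to 128 scaled reads for immune markers, and for the others 234 to 497 in B16F10 and 15.7 to 35.3 in E0771. Intervals and floors cover counting error only.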

Additional observations from a re-analysis of the deposited data

Results flagged for a closer look

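For 7 members the effect of MRTFA differed between E0771 and B16F10 in a test of the difference itself (limma, over all 18 libraries). That test called 21.1% of all 14859 tested genes, so the count of called members was near that of genes at large. Mkl1 rose far above its controls only in E0771, so line and level of the transgene cannot be told apart. The effect in E0771 minus that in B16F10 was 0.92 for Slc2a1, 0.74 for Pfkp, 0.56 for Aldoa, 0.96 for Pfkfb3 and 0.54 for Hif1a on the log2 scale. It was -0.49 for Ero1l and -1.04 for Mxi1. Pfkfb3, Hif1a and Mxi1 kept this call whichever of the 12 libraries was left out, while Slc2a1, Pfkp and Aldoa lost it without 8 of them and Ero1l without 5.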

How the results depend on the processing

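Counts of members called moved with some settings, and the cause was not tested. With the replicate number as a block, 1 member was called in place of 0 in each of the 3 comparisons within B16F10 (Hk2, Aldoc and Egln3), 20 in place of 10 for MRTFB against MRTFA in E0771, and 11 in place of 7 for the line difference in the MRTFA effect (adding Hk1, Pgam1, P4ha1 and Adm, the last at 1.75, limma adjusted p = 0.0163); the block changed no count for MRTFB against control in E0771. The block also raised the calls over all tested genes. In B16F10 they went from 209 to 855 for MRTFA against control, 17 to 603 for MRTFB against control and 148 to 359 for MRTFB against MRTFA, of 13517. In E0771 they went from 5064 to 6405 for MRTFA against control and 4430 to 5780 for MRTFB against MRTFA, of 13189. For the line difference in the MRTFA effect they went from 3138 to 3994 of 14859. DESeq2 called 1 for MRTFB against MRTFA in B16F10, as did a fit on only the groups compared (Egln3, adjusted p = 0.0235 and 0.0134), and that restriction left 4 of 7 for the line difference in the MRTFA effect. Leaving out each library gave 0 to 1 calls for MRTFA and for MRTFB against control in B16F10, 3 to 8 for the line difference in the MRTFA effect, 11 to 14 for MRTFA against control in E0771, 8 to 11 for MRTFB against MRTFA in E0771 and 25 to 28 between the controls. It gave 0 in each case for MRTFB against control in E0771 and for the line difference in the MRTFB effect. The share of all genes called is not given for the fits with a library left out, so those counts are no result about the members. For MRTFA against control in E0771, the other settings called 14 to 17 members beside 16, and 22 with the block, whose numbers did not pair those libraries by the check used. Over all genes, the settings other than the block called from 4544 of 10918 tested (minimum of 50) to 5447 of 13194 (upper-quartile scaling). The block added Tpi1, Pkm, Ldha, Pfkfb4, P4ha2 and Ero1l there (limma adjusted p 0.00594 to 0.0429). Depth limits Adm in B16F10 and Car9 and Aldoc in E0771, which rest on under 20 reads per library.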

Other observations

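Replicates with the same number tended to rank alike within groups of E0771. Replicate 2 was the highest library for 12 of the 16 glycolytic enzymes in E0771 controls, for 13 with MRTFA and for 11 with MRTFB, and replicate 1 was the lowest for 9, 9 and 11 of them. In B16F10 controls replicate 2 was the highest for 12 enzymes and replicate 3 the lowest for 13. What the replicate numbers share was not tested.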
